A study of Arabidopsis thaliana with 6 samples.

Results

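Growing pollen tubes were set against dry mature pollen of Arabidopsis thaliana on Affymetrix ATH1 arrays. The comparison held 4 of the 6 arrays of the series, chosen by their titles alone: 2 arrays of tubes and 2 of mature pollen. Both groups came from unmutated Columbia plants that were 50 days old. The tubes had grown for 4 h at 25 °C as a thin layer in a medium of sucrose, calcium, potassium, magnesium and borate salts. They averaged about 150 µm in length and were kept back by a 50 µm mesh that let ungerminated grains through. Before culture their pollen had been shaken from open flowers into the medium and spun down. The mature pollen was taken dry from open flowers by vacuum and met no medium, shaking or spinning. Germination and growth therefore cannot be told apart from collection, handling and 4 h in culture in any difference below. The remaining 2 arrays, of pollen hydrated for 45 min, entered the fit to help estimate the spread between replicates. They also counted in the choice of tested probe sets and in the classes by mean signal. The series calls its 2 replicates per stage biological, and the labels give no shared origin to arrays of the same replicate number, although such arrays deviated together from their stage means.

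A pollen grain is shed as a desiccated male gametophyte that holds a large vegetative cell and a pair of sperm cells. It leaves the anther with stored transcripts and proteins. After rehydration the vegetative cell pushes out a tube that grows only at its tip, where secretory vesicles deliver pectin and membrane, actin carries the vesicles, and calcium, ROP GTPases and receptor kinases steer the growth. The sugars that feed the tube are taken up from the tissue around it, or here from the medium.

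Over germination, tubes gained transcripts of small heat shock proteins and their partners, of the ubiquitin ligases PUB22 and PUB23, of the calcium sensor AT1G76640, the tetraspanin TET8, the hexose carrier STP10 and the cation exchanger CHX21. Several of these were at background in the dry grain. Tubes lost transcripts that had been abundant there: AT3G28980 of the DUF1216 family, 4 pectin methylesterases, the MADS-box factor AGL18, the late embryogenesis abundant protein AT5G27980 and the carrier AT4G00350. Several of the brightest pollen transcripts, among them 2 polygalacturonases, the pectate lyase AT3G01270 and the RALF peptide RALFL26, did not pass the test in either direction.

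Every value is a signal in arbitrary units, scaled by the submitters so that each array has the same trimmed mean, and changes are log2 differences, tubes minus mature pollen. Because of that scaling the values describe shares of the labelled RNA, and a change in RNA per grain cannot be told apart from a change in the number of grains or tubes collected. The 60th percentile of each array served as the limit of background: 31.5 and 19.7 on the tube arrays, and 34.1 and 25.1 on the mature arrays. Array medians were 22.8 and 14 in tubes, and 24.4 and 17.9 in mature pollen. A fold written as "at least" sets the mean log2 signal of the brighter stage against the mean log2 limit of the dimmer stage. It is used where neither array of the dimmer stage lay above its limit. Such a fold bounds the mean difference, and a single array can lie below it. Adjusted p-values come from limma, a linear model with a moderated test, with Benjamini-Hochberg adjustment over 11412 tested probe sets. "Rose" and "fell" mean an adjusted p under 0.05.

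The RNA read as pollen in both groups. All 5 of the 16 listed pollen markers that carry a name on the array lay above the limit on all 4 arrays, and their summed signals were 76165.7 and 60183.4 in tubes, and 87660.4 and 75427.8 in mature pollen. Markers of other tissues were near background. The 3 named photosynthetic genes of 30 listed summed to 65.5 and 20.4 in tubes, and to 66.2 and 30.9 in mature pollen. The 2 named floral organ genes of 13 summed to 86.7 and 29.3 in tubes, and to 61.6 and 48.5 in mature pollen. The 3 named tapetum genes of 19 summed to 51.7 and 8.1 in tubes, and to 26.7 and 13.9 in mature pollen. None of the 9 listed epidermis genes had a name here, so their part in the results was not tested.

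Tube and mature arrays resembled each other less than replicates of a stage did. Over 2661 probe sets with a mean signal above 200, the Pearson coefficient of log2 signal was 0.9365 between the 2 tube arrays and 0.9294 between the 2 mature arrays. Between a tube array and a mature array it lay from 0.5837 to 0.6693. Coefficients over probe sets carry no p, since probe sets are not independent. Replicates of tubes differed by a median of 0.6555 (absolute log2 difference, tested probe sets), and replicates of mature pollen by 0.711, while a tube array and a mature array differed by 0.802 to 1.03.

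In tubes 526 probe sets rose, which is 4.61% of those tested, and 375 fell, which is 3.29%. Together these 901 calls made up 7.9%. Of the rises 240 carried 1 gene name, for 239 genes, and of the falls 231. Tube and mature arrays did not overlap in 5249 probe sets, or 46%, with the tubes higher in 2377 (20.8%) and lower in 2872 (25.2%). All 901 called probe sets were among them. The sign was the same within both replicate numbers for 7677 of all tested probe sets, or 67.3%. After scaling the arrays to a common 75th percentile, 443 rose and 198 fell, so that falls made up a smaller share of the calls. Without the intensity trend of the limma fit, 228 passed, 180 up and 48 down. That setting kept 58 of the 141 named calls, and the calls it lost are not marked gene by gene below. With 2 arrays per stage, single arrays also weighed heavily on the counts. Without tube array 1 there were 349 calls, 217 up and 132 down, and without tube array 2 there were 468, 239 up and 229 down. Falls numbered 237 without mature array 1 and 236 without mature array 2.

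The replicate number bore on these counts as well. With it as a block in the fit, 1127 probe sets rose (9.88%) and 1032 fell (9.04%), and all 901 calls were among them. Of 6452 named genes tested, 239 rose (3.7%) and 231 fell (3.58%) without the block, and 542 rose (8.4%) and 604 fell (9.36%) with it. The counts of each gene list below are given beside these shares, and counts with the block belong beside the blocked shares. Members and lists were chosen with earlier results of these data known. A count above such a share therefore describes the list and supports nothing. "Did not pass" refers to the fit without the block, and the value with it is given where it changed a count or a call. With the block, every call of a gene named here that passed without it was kept.

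**Figure D1:**
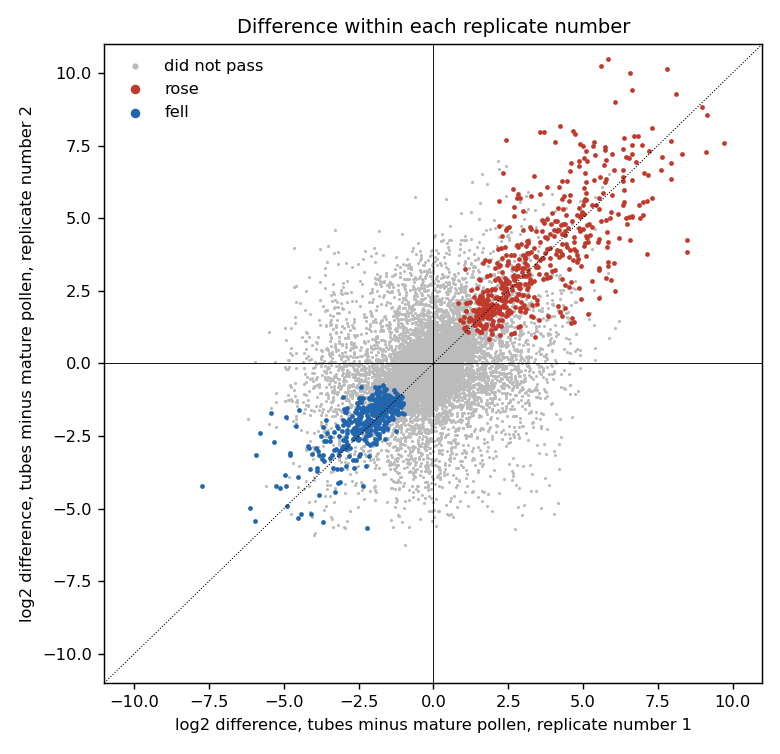
Log2 difference of tubes minus mature pollen within replicate number 1 (x axis) and within replicate number 2 (y axis), 1 point per tested probe set, with the 526 rises in red, the 375 falls in blue, the other probe sets in grey and a dotted line of equal values. All called points share their sign between the numbers, at the upper right or the lower left, and the grey cloud holds many points whose sign differs between the numbers.

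Among the calls, rises and falls differed in size and starting level. Rises were large and mostly started low: their median log2 difference was 3.16, 414 exceeded 4-fold and 199 exceeded 16-fold. Set at their bound where mature pollen was at background, the median was 2.7. Their median signal was 484.7 in tubes, against 48.02 in mature pollen, and in 155 of them neither mature array lay above background. Falls were smaller and mostly started high. Their median log2 difference was -1.999, 187 exceeded 4-fold and 17 exceeded 16-fold. Their median signal was 235 in tubes, against 925.1 in mature pollen, and 26 of them were at background in tubes. Set at their bound in those, the median of the falls was -1.886. The filter was met only through tube arrays by 94 rises, and only through mature arrays by 3 falls. How far the filter and the test shape this contrast was not tested. Among the risen probe sets, 157 had a mean above 1000 in tubes and 13 in mature pollen. Among the fallen ones, 71 had such a mean in tubes and 177 in mature pollen.

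No rise passed among the brightest probe sets, taken by the mean over all 6 arrays, in tubes or in mature pollen. Among 146 tested probe sets with a mean over all 6 arrays above 10000, 0 rose and 14 fell (9.59%). A mean over all 6 arrays can leave out a transcript that started low. AT1G76640, with a mean of 10251.95 in tubes, rose and lay outside that class. Between 1000 and 10000, 75 rose (8.8%) and 135 fell (15.8%), and between 100 and 1000 the shares were turned round, with 349 rises (12.4%) and 187 falls (6.66%). The median log2 differences of these classes, from the brightest down, were -0.277, -0.283 and 0.0776. Signal summed over all probe sets but controls was 6067619 and 5697115 in tubes, against 7058005 and 6798480 in mature pollen. A lowering of bright signals as a whole was not told apart from falls of single genes. Of the 100 brightest probe sets in tubes and the 100 brightest in mature pollen, 77 were shared. Of the 100 brightest in tubes 0 rose and 1 fell, and of the 100 brightest in mature pollen 0 rose and 16 fell. In none of these 3 sets did limma give a rise at an unadjusted p under 0.05. With the block there were again 0 rises in the 3 sets, and 29, 6 and 28 falls. It gave 161 rises and 327 falls between 1000 and 10000, and 694 rises and 523 falls between 100 and 1000.

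**Figure D2:**
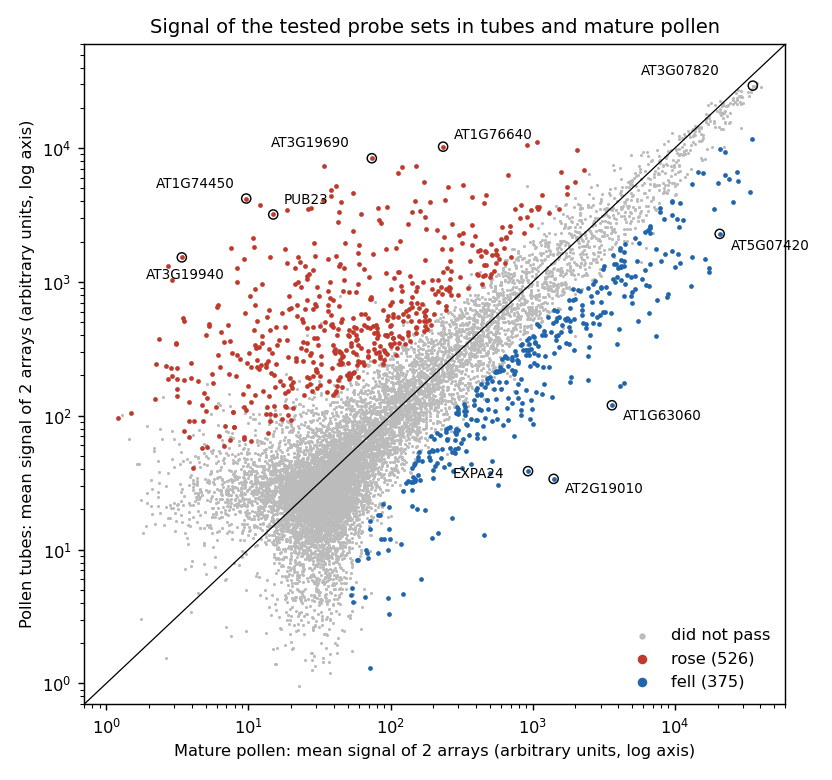
Mean signal of the 2 tube arrays (y axis) against the mean of the 2 mature arrays (x axis), both on log axes in arbitrary units, for the 11412 tested probe sets, with rises in red, falls in blue and circles around 10 genes named in the text. Red points spread far above the diagonal at low mature signal and blue points lie below it at high mature signal, while the brightest probe sets lie close to the diagonal, many of them just below it.

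Heat shock chaperones rose in tubes. Small heat shock proteins hold unfolding proteins in solution, and 9 of the 17 listed had a name on the array. Of the 7 that were tested, 6 rose, 0 fell and 1 did not pass, where 3.7% of all named genes tested rose. That share is given for scale only, since the list was chosen with earlier results of these data known. Their median log2 difference was 3.89, or 3.20 with the 4 that were at background in mature pollen set at their bound, against -0.16 over all 6452 named genes tested. AT2G29500, a cytosolic class I member, read 4902.5 and 2138.7 in tubes, against 49.1 and 3.1 in mature pollen. AT1G53540, another class I member, read 4834.7 and 3083.3 in tubes, against 59.1 and 30.8 in mature pollen. AT1G54050, of class III, read 4529 and 2373.5 in tubes, against 28.4 and 8.7 in mature pollen. In all 3 both tube arrays lay far above both mature arrays. Their log2 differences were 8.04 ± 1.05 (SE, adjusted p = 0.000825), 6.50 ± 0.47 (adjusted p = 2.4e-05) and 7.70 ± 0.59 (adjusted p = 3.55e-05). Only 1 mature array put AT2G29500 above background, and AT1G54050 rose at least 112-fold.

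The organelle members of the family were dimmer. ATHSP22.0, which resides in the endoplasmic reticulum, read 251.4 and 286.2 in tubes, against 31.6 and 11.8 in mature pollen, and rose at least 9.17-fold (adjusted p = 0.0014). AT5G51440, a mitochondrial member, read 70.9 and 62.3 in tubes, against 14.7 and 4 in mature pollen and rose at least 2.27-fold (adjusted p = 0.0356). AT1G52560 read 92.3 and 49.5 in tubes, against 2 and 10.4 in mature pollen and rose at least 2.31-fold (adjusted p = 0.0342). The tube and mature arrays did not overlap in these genes either, but the calls of the last 2 were weak. That of AT5G51440 was lost without tube array 1, tube array 2, mature array 2, hydrated array 1 or hydrated array 2 (adjusted p between 0.0601 and 0.198), and that of AT1G52560 without tube array 1, tube array 2, mature array 1, hydrated array 1 or hydrated array 2 (adjusted p between 0.0635 and 0.283). The remaining member, AT2G19310, overlapped between the groups, at 65 and 10.9 in tubes, against 39 and 54.8 in mature pollen.

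Some of the larger chaperones rose as well. Of 30 listed genes for HSP70, HSP90, HSP101 and their helpers 6 had a name and 5 were tested, of which 3 rose and 0 fell, or 4 and 0 with the block. The median was 5.83, or 2.64 with members at their bound. AT5G48570, the FKBP-type immunophilin ROF2 that binds HSP90, read 3639.5 and 2742.9 in tubes, against 107.2 and 17.2 in mature pollen (6.20 ± 0.66, adjusted p = 0.000253). Hsp70-2, a cytosolic HSP70, read 1000.2 and 777.2 in tubes, against 12.3 and 10 in mature pollen and rose at least 30.1-fold (adjusted p = 1.29e-05). Hop3, which links HSP70 to HSP90, read 149.8 and 221.1 in tubes, against 5.1 and 2 in mature pollen and rose at least 6.22-fold (adjusted p = 0.000336). All of these tube readings lay above the mature ones. A second HSP70, AT3G09440, had 110.1 and 185.4 in tubes, against 27 and 37.8 in mature pollen, a difference of 2.16 ± 0.61 that did not pass without the block (adjusted p = 0.0588) and did with it (adjusted p = 0.00247). Hop2 overlapped between the groups, with 31.6 and 20.2 in tubes, against 22 and 38.1 in mature pollen. None of the 19 listed heat shock factors carried a name here.

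Further genes tied to heat and protein folding were picked after their values had been seen and add no count to the lists. Fes1A, an exchange factor for HSP70, read 1359.9 and 1005.6 in tubes, against 154.8 and 72.9 in mature pollen (3.46 ± 0.41). AT2G20560, a DnaJ-type partner of HSP70, read 278.4 and 131.6 in tubes, against 8 and 6.6 in mature pollen, at least 6.54-fold higher. TIL, a lipocalin that protects membranes from heat, read 1141.2 and 633.7 in tubes, against 111.4 and 89.3 in mature pollen (3.09 ± 0.39). ALDH7B4, an aldehyde dehydrogenase that detoxifies products of lipid damage, read 3717.8 and 3069.6 in tubes, against 177.1 and 143.8 in mature pollen (4.40 ± 0.34). Their adjusted p-values were 0.000482, 0.000507, 0.000726 and 3.62e-05, and both tube arrays exceeded both mature arrays in each.

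U-box ubiquitin ligases, which mark proteins for breakdown, gave 3 rises and 0 falls among 7 tested (3 and 1 with the block), with a median of 1.49. Of all named genes 3.7% rose, and with the block 8.4% rose and 9.36% fell. PUB23 read 2503.7 and 3879.6 in tubes, against 26.1 and 3.8 in mature pollen, which is at least 107-fold higher (6.58 and 10.00 within replicate numbers 1 and 2, adjusted p = 7.75e-05). Its close relative PUB22 read 249.2 and 162.7 in tubes, against 2.6 and 8.5 in mature pollen, at least 6.88-fold higher (adjusted p = 0.00082). Both are known as fast responders to elicitors of defence. They were also the 2 risen of 4 tested members among 52 listed early wound, touch and elicitor genes, in which the third ligase of that trio, PUB24, had 32.1 and 3.9 in tubes, against 57.3 and 4.4 in mature pollen and WRKY6 had 23.9 and 35.7 in tubes, against 9.3 and 24.4 in mature pollen. The median of that list was 3.19, or 1.87 at the bounds. PUB49 had a lower range, 244.1 and 211.7 in tubes, against 45.8 and 31.4 in mature pollen (2.58 ± 0.41, adjusted p = 0.0028). PUB15, the brightest U-box gene, had 1132.3 and 1650.7 in tubes, against 2363.6 and 2684.1 in mature pollen, and its difference of -0.88 ± 0.31 did not pass (adjusted p = 0.14, or 0.0013 with the block).

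The genes with the highest bounds included AT1G74450 and AT5G35380, and another kinase and a VQ protein are given with them. They belong to no list with a count. AT1G74450, a protein with a DUF793 domain, read 3301.7 and 5098.7 in tubes, against 5.8 and 13.5 in mature pollen, at least 140-fold higher (adjusted p = 1.29e-05). AT5G35380, a protein kinase with a universal stress domain, had 2 nearly equal tube readings, 3700.5 and 3770.8 in tubes, against 4.4 and 19.7 in mature pollen, and rose at least 128-fold (adjusted p = 2.34e-05). A kinase of the same domain structure, AT2G07020, read 285.2 and 517.8 in tubes, against 7.1 and 2.9 in mature pollen, at least 13.1-fold higher (adjusted p = 0.000599), a call lost without tube array 2 (adjusted p = 0.0602). AT5G08480 carries the VQ motif found in partners of WRKY factors and read 1257.7 and 808.2 in tubes, against 4.5 and 1.3 in mature pollen, at least 34.5-fold higher (adjusted p = 0.000483). In all 4 genes the mature readings lay below background and far below the tube readings.

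Without the block most calcium sensors did not pass, with it most did, and in both fits the calls went both ways. Of 46 listed calmodulins and calmodulin-like proteins, which bind calcium through EF hands, 30 had a name and 16 were tested. Among these 4 rose, 1 fell and 11 did not pass, with a median of 0.59. With the block 7 rose and 4 fell, beside 8.4% of all named genes that rose and 9.36% that fell. AT1G76640, also called CML39, was one of the brighter gains at 12942.3 and 7561.6 in tubes, against 278.3 and 190.2 in mature pollen (5.43 ± 0.37, adjusted p = 1.9e-05). The EF-hand proteins AT3G10300, with 673 and 853.1 in tubes, against 43.8 and 30.6 in mature pollen (4.37 ± 0.42, adjusted p = 0.000119), and AT3G25600, with 2999 and 1456.8 in tubes, against 418.9 and 182.3 in mature pollen (2.92 ± 0.47, adjusted p = 0.00326), also rose. CML42 had 414.5 and 214.6 in tubes, against 39.2 and 113.4 in mature pollen (2.16 ± 0.55, adjusted p = 0.0385). The calls of the last 2 depended on single arrays: that of AT3G25600 was lost without tube array 1 (adjusted p = 0.071), and that of CML42 without tube array 1, tube array 2, mature array 1, hydrated array 1 or hydrated array 2 (adjusted p between 0.0654 and 0.281). Without tube array 1 the list therefore had 2 rises. The fall was that of AT1G73630, which had 106 and 228.9 in tubes, against 3733.3 and 4505.3 in mature pollen (-4.72 ± 0.39, adjusted p = 5.04e-05). The brightest sensor, AT3G03430, read 8682.5 and 5373.4 in tubes, against 17043.7 and 8889.3 in mature pollen and did not pass (adjusted p = 0.286, or 0.00262 with the block).

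Among sugar carriers 2 genes rose. AT3G19940, the hexose carrier STP10 of the pollen tube, read 1143.9 and 1907.6 in tubes, against 5.1 and 1.7 in mature pollen. It was at background in mature pollen, so the rise was at least 50.5-fold (7.81 and 10.13 within replicate numbers 1 and 2, adjusted p = 0.000355). SWEET8, a sugar exporter needed for pollen development, read 270.7 and 213.3 in tubes, against 64.7 and 21.8 in mature pollen (2.68 ± 0.59, adjusted p = 0.0188). These were the 2 rises among 8 tested sugar transport genes, with 0 falls (1 with the block) and a list median of -0.05. The SWEET8 call was lost without tube array 1, tube array 2 or mature array 2 (adjusted p between 0.0697 and 0.152). Without either tube array STP10 no longer passed the filter and was not tested, so the list had no rise without tube array 1 or 2 and 1 rise without mature array 2. AtVEX1, a SWEET-type carrier of the vegetative cell, overlapped between the groups at 153.6 and 298.7 in tubes, against 117.4 and 340.6 in mature pollen, and the tonoplast carrier TMT1 at 365.5 and 851.3 in tubes, against 460.4 and 2089.1 in mature pollen. TMT1 had an adjusted p of 0.633, or 0.0122 with the block.

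Of the cation/proton exchangers 2 rose, among 6 tested ion channels, pumps and exchangers, with 0 falls and a median of 0.40. CHX21 had 2 nearly identical tube readings, 285.2 and 285.1 in tubes, against 11.1 and 1.1 in mature pollen, at least 9.75-fold higher (adjusted p = 0.015). CHX19 read 356 and 595.7 in tubes, against 108.2 and 50.6 in mature pollen (2.64 ± 0.48, adjusted p = 0.00654), a call lost without tube array 2 (adjusted p = 0.0904). CHX21 was not tested without either tube array, so the list had 1 rise without tube array 1 and no rise without tube array 2. The brightest exchanger, CHX15, had 1339.5 and 1854.7 in tubes, against 862.8 and 1419.6 in mature pollen and did not pass (adjusted p = 0.487).

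A few genes for enzymes and proteins that cut or loosen the wall rose. AT5G09280, of the pectate lyase family whose members cut demethylated pectin, read 1670.1 and 1832 in tubes, against 34.6 and 1.5 in mature pollen (7.92 ± 1.20, adjusted p = 0.0021), and 1 mature array put it above background. It was the sole rise among 20 tested pectin-modifying enzymes (2 with the block). EXPA16, an expansin that loosens wall polymers, read 1109.2 and 1630.9 in tubes, against 19.8 and 100.8 in mature pollen (4.91 ± 0.66, adjusted p = 0.000985). AT4G26830, a glucanase-type glycosyl hydrolase chosen after its values were seen, read 2611.1 and 3014.9 in tubes, against 47.9 and 37.2 in mature pollen (6.05 ± 0.36, adjusted p = 1.29e-05). BGLU15, a beta-glucosidase chosen in the same way, read 292.6 and 312.8 in tubes, against 44.2 and 41.9 in mature pollen (2.81 ± 0.41, adjusted p = 0.00173). The tube readings of these 4 genes lay clear of the mature ones.

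Tetraspanins organise membrane domains, and 3 of 7 tested rose with 0 falls and a median of 1.08, where 3.7% of all named genes rose. With the block 4 rose, beside 8.4% of all named genes. TET8, a plasma membrane and vesicle tetraspanin, read 2047.1 and 1087.9 in tubes, against 28.4 and 30.5 in mature pollen (5.66 ± 0.46, adjusted p = 4.89e-05). TET7 read 388.3 and 415.2 in tubes, against 75.3 and 108.2 in mature pollen (2.15 ± 0.40, adjusted p = 0.00726) and TET16 394.6 and 284.6 in tubes, against 6 and 25.9 in mature pollen (4.75 ± 1.05, adjusted p = 0.0191). The call of TET7 was lost without tube array 1 or tube array 2 (adjusted p between 0.0734 and 0.0737) and that of TET16 without tube array 1, tube array 2 or mature array 1 (adjusted p between 0.0737 and 0.234), which left 1 rise in the list without either tube array and 2 without mature array 1. TET13, the brightest, had 5106.2 and 3365.7 in tubes, against 2304.8 and 1668 in mature pollen, groups that did not overlap, and an adjusted p of 0.106, or 0.000136 with the block. TET8 also gave the single rise among 8 tested genes for the exocyst, secretion and phosphoinositide kinases (median -0.03), where the lipid kinase PIPK11 had 5209 and 5456.1 in tubes, against 8504.8 and 5721.8 in mature pollen.

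The next 3 genes of membranes and sorting were picked because they rose and stand for no group. AT1G69840, a band 7 protein of the plasma membrane, was among the brightest transcripts to gain, with 11093.5 and 11201.9 in tubes, against 815.1 and 1316.4 in mature pollen (3.43 ± 0.35, adjusted p = 0.00018). SNF7.1, a subunit of the ESCRT machinery that forms multivesicular bodies, read 117.5 and 124.6 in tubes, against 2.6 and 6.8 in mature pollen, at least 4.14-fold higher (adjusted p = 0.00309), a call lost without tube array 1 or tube array 2 (adjusted p between 0.0668 and 0.0782). AT3G58730, a subunit of the vacuolar proton pump, read 1170.3 and 1233.8 in tubes, against 226.1 and 308.7 in mature pollen (2.19 ± 0.33, adjusted p = 0.00198).

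**Figure D3:**
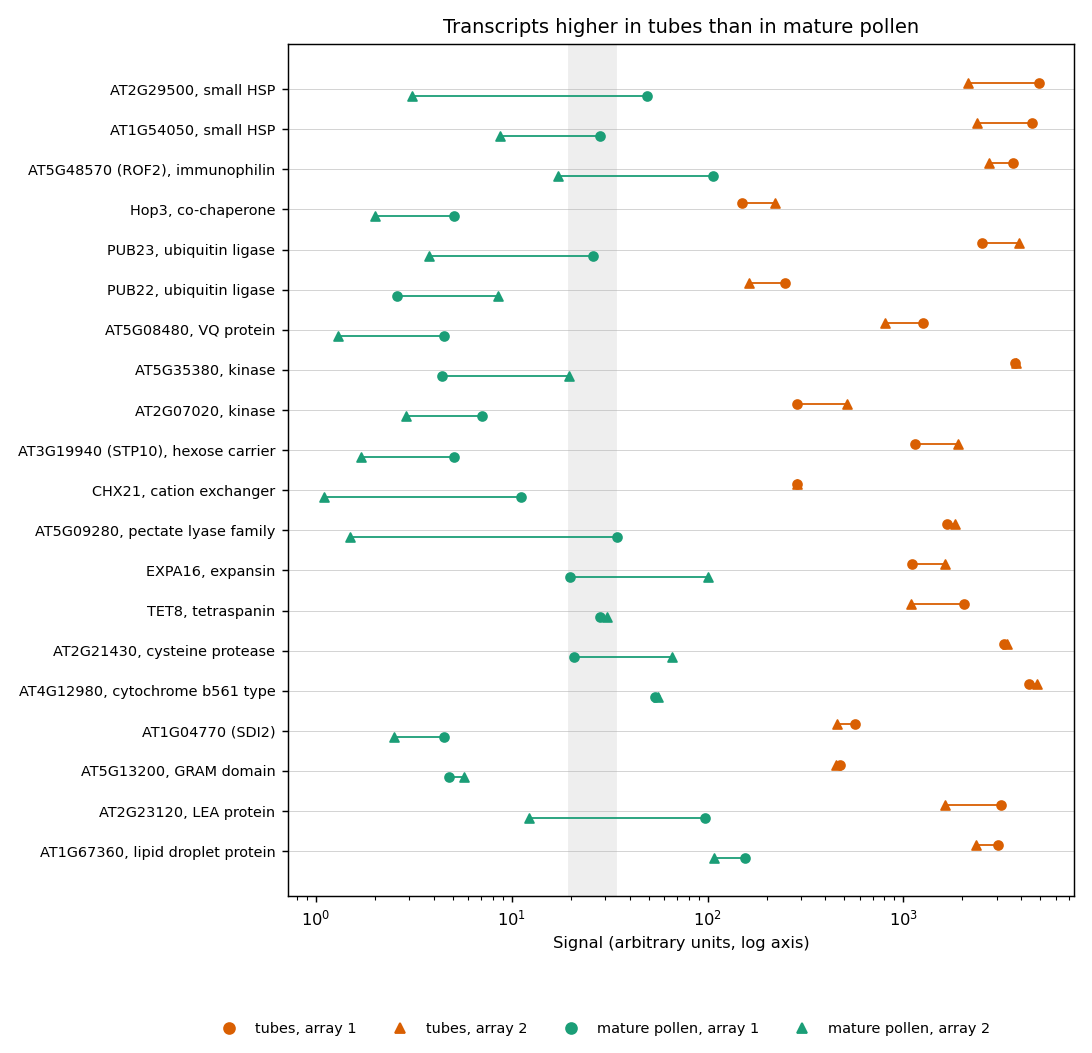
Signal of 20 genes that rose, on a log axis in arbitrary units, with the 2 tube arrays (orange) drawn above the 2 mature arrays (green), circles for array 1, triangles for array 2 and a grey band from the lowest to the highest 60th percentile of the 6 arrays. Every orange point lies to the right of the green points of its gene, and many green points lie in or left of the grey band.

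Other steep gains belonged to proteases, redox proteins and secreted proteins. AT3G19690, whose CAP domain it shares with secreted PR-1 proteins, read 9656.2 and 7143.5 in tubes, against 88.7 and 58.9 in mature pollen (6.84 ± 0.33, adjusted p = 9.29e-06). AT2G21430, a papain-type cysteine protease, read 3264.1 and 3369.9 in tubes, against 20.8 and 65.7 in mature pollen (6.49 ± 0.50, adjusted p = 3.43e-05). AT4G12980, of the cytochrome b561 type, read 4364.3 and 4809.9 in tubes, against 53.7 and 55.9 in mature pollen (6.39 ± 0.42, adjusted p = 1.46e-05). In each the tube replicates were close together and far above the mature readings. Chosen after their values were seen, the subtilase AT1G66220 read 472.8 and 556.3 in tubes, against 7.8 and 15 in mature pollen, at least 17.5-fold higher (adjusted p = 0.00116), and the vacuolar aspartic protease APA1 read 2712.5 and 4263.5 in tubes, against 548.3 and 949 in mature pollen (2.24 ± 0.39, adjusted p = 0.00506), a call lost without tube array 2 (adjusted p = 0.0756).

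Single genes of metabolism rose. CXE18, a carboxylesterase, read 1071.9 and 1460.6 in tubes, against 7.3 and 9.2 in mature pollen, at least 42.8-fold higher (adjusted p = 1.29e-05). AT1G04770, known as SDI2 and induced by sulphur shortage, read 565.9 and 459.4 in tubes, against 4.5 and 2.5 in mature pollen, at least 17.4-fold higher (adjusted p = 0.000119). AT1G67640, an amino acid carrier chosen after its values were seen, read 4956.3 and 7679.3 in tubes, against 757.7 and 582.3 in mature pollen (3.22 ± 0.38, adjusted p = 0.000478). UGT73B5, a glucosyltransferase of stress responses, read 414.6 and 420.6 in tubes, against 80.5 and 72 in mature pollen (2.46 ± 0.39, adjusted p = 0.00297). It was the one rise among 16 tested UDP-glycosyltransferases matched by symbol or synonym (3 rises and 1 fall with the block). A glycosyltransferase outside that list, AT2G28080, fell and is given below. SDH1-1, the catalytic subunit of succinate dehydrogenase, was the one rise among 4 tested genes of the tricarboxylic acid cycle (1 rise and 1 fall with the block), at 645.8 and 672.8 in tubes, against 211.3 and 276.2 in mature pollen (1.45 ± 0.32, adjusted p = 0.0198). Its call was lost without tube array 1, tube array 2 or mature array 1 (adjusted p between 0.0979 and 0.142).

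Lipid reserve genes split. AT1G67360, a small protein of the lipid droplet surface, read 3051.5 and 2353.6 in tubes, against 154.8 and 108.4 in mature pollen (4.37 ± 0.32, adjusted p = 3.04e-05). Its relative AT3G05500 was brighter, at 5387.4 and 8403.3 in tubes, against 1136.1 and 3438.4 in mature pollen, and changed less (1.77 ± 0.48, adjusted p = 0.0489). The triacylglycerol lipase SDP1-LIKE fell, with 381.4 and 775.8 in tubes, against 1905.7 and 3349.5 in mature pollen (-2.22 ± 0.44, adjusted p = 0.0103). SDP1, the main lipase of seed oil, did not pass at 701 and 769.3 in tubes, against 393.5 and 338.2 in mature pollen (adjusted p = 0.0694, or 0.000996 with the block). The call of AT3G05500 was lost without tube array 1, tube array 2, mature array 1, hydrated array 1 or hydrated array 2 (adjusted p between 0.0778 and 0.301), and that of SDP1-LIKE without tube array 1 or mature array 2 (adjusted p between 0.0634 and 0.134). Both directions thus occurred among only 4 tested genes, 2 up and 1 down, or 3 up and 1 down with the block.

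Most late embryogenesis abundant (LEA) proteins, which protect dry tissues, did not pass. Of 11 tested 1 rose, 1 fell and 9 did not pass, beside 3.7% of all named genes that rose and 3.58% that fell, with a median of -0.76. With the block 1 rose and 4 fell, beside 8.4% of all named genes that rose and 9.36% that fell. AT2G23120 read 3140.1 and 1626 in tubes, against 96.6 and 12.2 in mature pollen (6.04 ± 0.79, adjusted p = 0.00082). AT5G27980, one of the brightest transcripts of the dry grain, read 1084 and 766.9 in tubes, against 16095 and 10021 in mature pollen (-3.80 ± 0.43, adjusted p = 0.00036). The tube readings of AT5G27980 were far below the mature ones, while those of AT2G23120 were far above. AT5G38760, a LEA-type protein outside the list and chosen after its values were seen, fell as well, with 9786.5 and 3560 in tubes, against 34892.8 and 19801.7 in mature pollen (-2.15 ± 0.54, adjusted p = 0.0353), but not without tube array 2 or mature array 1 (adjusted p between 0.162 and 0.258).

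Transcriptional and signalling regulators that rose are given here as chosen after their values were seen. The MYB-related factor AT5G04760 read 696.2 and 562.2 in tubes, against 31.6 and 7.2 in mature pollen, at least 21.4-fold higher (adjusted p = 0.000336). The zinc-finger proteins AT2G05160, of the CCCH type, and AT3G60580, of the C2H2 type, read 363 and 511.7 in tubes, against 6.1 and 15.8 in mature pollen, and 399.6 and 482.2 in tubes, against 66 and 36.2 in mature pollen. Their adjusted p-values were 0.0011 and 0.00118. AT5G61620, a further MYB-related factor, read 809.7 and 533.4 in tubes, against 109.1 and 89 in mature pollen (adjusted p = 0.0016). AT5G22400, a GTPase-activating protein for ROPs, read 232.8 and 247.1 in tubes, against 14.3 and 10.2 in mature pollen, at least 8.2-fold higher (adjusted p = 0.00714).

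Further large rises complete those chosen by size. AT5G13200, with a GRAM domain, read 476.6 and 454.3 in tubes, against 4.8 and 5.7 in mature pollen, at least 15.9-fold higher (adjusted p = 7.33e-05). AT5G52760, with a domain of heavy metal binding proteins, read 370.7 and 117.3 in tubes, against 3.7 and 0.8 in mature pollen, at least 7.13-fold higher (adjusted p = 0.0394), and its call was lost without mature array 2 or hydrated array 1 (adjusted p between 0.0624 and 0.0756). AT5G66430, a methyltransferase of the SABATH family, read 113.7 and 77.5 in tubes, against 0.8 and 1.6 in mature pollen, at least 3.21-fold higher (adjusted p = 0.00939), and was lost without tube array 1 or tube array 2 (adjusted p between 0.309 and 0.326). Genes whose role is not given here also rose from background, at least 51.7-fold in AT3G15860, 48.2-fold in AT5G11820, 47.7-fold in AT1G32920, 40.8-fold in AT3G26870, 16.5-fold in AT3G02125 and 11.6-fold in AT3G01430. In AT1G32920 the tube replicates themselves stood apart, at 2952.5 and 659.8.

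The losses included several genes of the DUF1216 family. No list of that family was counted, so the share of its tested members that fell is not given here. AT5G39870, a dim member of that family, had 2.2 and 23.6 in tubes, against 469.7 and 437.7 in mature pollen (-5.98 ± 0.89, adjusted p = 0.00191). One tube array put it above background. AT3G28980 was far brighter, with 1294.9 and 1249.5 in tubes, against 19272.4 and 15342.7 in mature pollen (-3.76 ± 0.29, adjusted p = 3.62e-05). The members AT3G28830 and AT3G28790, chosen after their values were seen, read 3384 and 4496.3 in tubes, against 30747 and 20937.3 in mature pollen, and 5556.6 and 7113.2 in tubes, against 22412.3 and 22826.2 in mature pollen. They fell by 2.70 and 1.85 (adjusted p = 0.000493 and 0.00317). AT3G28780, AT3G28840 and AT5G61720, chosen in the same way, fell too, but their calls depended on single arrays. AT3G28780 read 399.2 and 1505.4 in tubes, against 4670.5 and 7880.1 in mature pollen (adjusted p = 0.0101), a call lost without tube array 1 or mature array 2 (adjusted p between 0.0551 and 0.101). AT3G28840 read 411 and 362.4 in tubes, against 1052.8 and 987.1 in mature pollen (adjusted p = 0.0215), a call lost without tube array 1, tube array 2, mature array 1 or mature array 2 (adjusted p between 0.0642 and 0.158). AT5G61720 read 10024.4 and 9597.1 in tubes, against 21156.9 and 20664.1 in mature pollen (adjusted p = 0.0476) and was lost whichever of the 6 arrays was left out (adjusted p between 0.0754 and 0.172). Probe sets of such close relatives may share signal. In every gene given here the mature readings exceeded the tube readings without overlap, as in all called falls.

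Some pectin-modifying enzymes fell while their brightest ones did not pass. Pectin methylesterases strip methyl groups from wall pectin, and polygalacturonases and pectate lyases cut it. Of 20 tested 1 rose, 5 fell and 14 did not pass, with a median of -0.36, where 3.58% of all named genes fell. With the block 2 rose and 7 fell, beside 8.4% of all named genes that rose and 9.36% that fell. The methylesterase AT5G07420 read 2482.6 and 2089 in tubes, against 24930 and 16412.7 in mature pollen (-3.15 ± 0.31, adjusted p = 0.000165). AT3G06830 read 550 and 1072.1 in tubes, against 10129.6 and 7719.8 in mature pollen (-3.53 ± 0.38, adjusted p = 0.000264), AT5G27870 536.9 and 1006.4 in tubes, against 5020 and 12565.6 in mature pollen (-3.43 ± 0.45, adjusted p = 0.00082) and AT4G15980 247.3 and 404.1 in tubes, against 1924.1 and 3032 in mature pollen (-2.93 ± 0.35, adjusted p = 0.000493). In these 4 methylesterases both tube arrays lay below both mature arrays. The fifth fall, the polygalacturonase AT3G07840, was dim, at 31.4 and 33.3 in tubes, against 110 and 155.4 in mature pollen (-2.02 ± 0.47, adjusted p = 0.0266), and was lost without tube array 1, tube array 2 or mature array 2 (adjusted p between 0.103 and 0.129).

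Against them stood enzymes at the top of the signal range. The polygalacturonase AT3G07820 read 35048.8 and 23534.2 in tubes, against 42491.4 and 28230 in mature pollen (-0.27 ± 0.36, adjusted p = 0.769). A second one, AT5G48140, read 26077.3 and 17721 in tubes, against 35204.5 and 24809.2 in mature pollen (-0.46). The pectate lyase AT3G01270 read 26591.2 and 21981.9 in tubes, against 35375.8 and 24414.2 in mature pollen (-0.28), and the methylesterase AT3G05610 16197.9 and 19020.5 in tubes, against 14411.3 and 20356.6 in mature pollen (0.04). In each of these 4 the readings overlapped between tubes and mature pollen, and the lowest adjusted p was 0.551. The 95% interval of the difference of AT3G07820 ran from -1.06 to 0.52, so a change of about 2-fold downward lay within it. AT1G10770, an inhibitor of pectin methylesterases, read 32536.8 and 22577.6 in tubes, against 40239.8 and 29910 in mature pollen, and likewise did not pass (adjusted p = 0.678).

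Most expansins did not pass. Of 11 tested 1 rose, 1 fell and 9 did not pass, beside 3.7% of all named genes that rose and 3.58% that fell, with a median of 0.14. EXPA24 read 48.6 and 28.5 in tubes, against 824.9 and 1029 in mature pollen, a difference of -4.63 ± 0.42 (adjusted p = 8.7e-05), opposite in sign to that of EXPA16. EXPA4, the brightest, overlapped between the groups at 10233.3 and 15617.9 in tubes, against 4744.1 and 14439.1 in mature pollen, and EXPB5 at 5449.2 and 8427.8 in tubes, against 3745.4 and 7614.4 in mature pollen.

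Some transcription factors of pollen fell. The 12 tested on that list had 0 rises and 4 falls (0 and 7 with the block), with a median of -1.08. Of all named genes 3.58% fell, or 9.36% with the block. All 4 falls were MADS-box factors. AGL18, which is expressed in pollen and represses flowering elsewhere in the plant, read 1542.3 and 1203.3 in tubes, against 6759.8 and 6526.6 in mature pollen (-2.29 ± 0.29, adjusted p = 0.000633). AGL66, one of the pollen MADS-box factors needed for tube growth, read 427.6 and 376.5 in tubes, against 1729.4 and 1296.5 in mature pollen (-1.90 ± 0.37, adjusted p = 0.00995). AGL29 read 173.2 and 239.8 in tubes, against 937 and 551.5 in mature pollen (-1.82 ± 0.38, adjusted p = 0.015) and AGL21, at background in tubes, 4.1 and 14.8 in tubes, against 91.3 and 44.6 in mature pollen, at least 2.56-fold lower (adjusted p = 0.0392). AGL18 kept its call whichever array was left out. The others did not: AGL66 was lost without tube array 1, tube array 2 or mature array 1 (adjusted p between 0.0631 and 0.0944), AGL29 without tube array 1, tube array 2 or mature array 1 (adjusted p between 0.0592 and 0.159) and AGL21 without tube array 1, mature array 1, hydrated array 1 or hydrated array 2 (adjusted p between 0.0721 and 0.185). That left 1 fall in the list without tube array 1 or mature array 1 and 2 without tube array 2. AGL104, the partner of AGL66 in the control of tube growth, read 905.5 and 1087 in tubes, against 930.8 and 1210.9 in mature pollen, and AGL65 438.7 and 618.3 in tubes, against 684.7 and 937 in mature pollen. These 2 had adjusted p-values of 0.911 and 0.375. Limma called 0 of 13 tested bZIP factors matched by symbol or synonym, with 1 at an unadjusted p under 0.05. With the block it called 2 rises and 2 falls among them. AT5G44080, a bZIP factor outside that list and chosen after its values were seen, rose (3.1, adjusted p = 0.038). Its call depended on single arrays.

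Single genes of signalling fell. AT1G72460, the receptor kinase PRK8 of the pollen receptor kinase family, was the sole fall among 15 tested tip growth genes (2 with the block), with 155.8 and 134.2 in tubes, against 745.4 and 1567.8 in mature pollen (-2.90 ± 0.40, adjusted p = 0.00115). Chosen after its values were seen, the cytoplasmic receptor-like kinase AT3G20530 read 1326.1 and 1932 in tubes, against 12334.5 and 8685.8 in mature pollen (-2.69 ± 0.34, adjusted p = 0.000712). The F-box protein CEG, chosen in the same way, read 126.9 and 172.5 in tubes, against 1035 and 1072.4 in mature pollen (-2.83 ± 0.33, adjusted p = 0.000384). AT5G10650, a RING-type protein, read 98.2 and 76.7 in tubes, against 1232.6 and 790 in mature pollen (-3.51 ± 0.35, adjusted p = 0.000173), and the F-box protein AT3G07870 39.5 and 101.3 in tubes, against 713.6 and 758.4 in mature pollen (-3.54 ± 0.44, adjusted p = 0.000633). AUR1, an Aurora kinase of cell division chosen after its values were seen, read 764.4 and 1075 in tubes, against 2706.1 and 3336 in mature pollen (-1.73 ± 0.32, adjusted p = 0.0069), a call lost without tube array 1 (adjusted p = 0.104).

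Single genes for carriers and lipid-handling proteins that fell are given next, with no list counted behind them. AT4G00350, a MATE-type carrier, read 215.7 and 576.4 in tubes, against 6642.2 and 8193.3 in mature pollen (-4.39 ± 0.44, adjusted p = 0.000161). AT5G28470, the flavonol glycoside carrier NPF2.8 that loads the pollen surface, read 28.5 and 31.9 in tubes, against 402.5 and 732.1 in mature pollen (-4.17 ± 0.51, adjusted p = 0.000554). AT2G19010, a GDSL-type lipase, read 17.5 and 50 in tubes, against 1220 and 1586.4 in mature pollen (-5.56 ± 0.48, adjusted p = 7.05e-05). AT2G18180, a Sec14-like lipid transfer protein chosen after its values were seen, read 1068.7 and 1700.1 in tubes, against 11817.9 and 9922.7 in mature pollen (-3.01 ± 0.32, adjusted p = 0.000237). The major facilitator protein AT2G16980 was at background in tubes, with 21.6 and 2.6 in tubes, against 278.2 and 115.1 in mature pollen, at least 7.18-fold lower (adjusted p = 0.012), and its call was lost without tube array 2 or mature array 1 (adjusted p between 0.0596 and 0.0782).

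**Figure D4:**
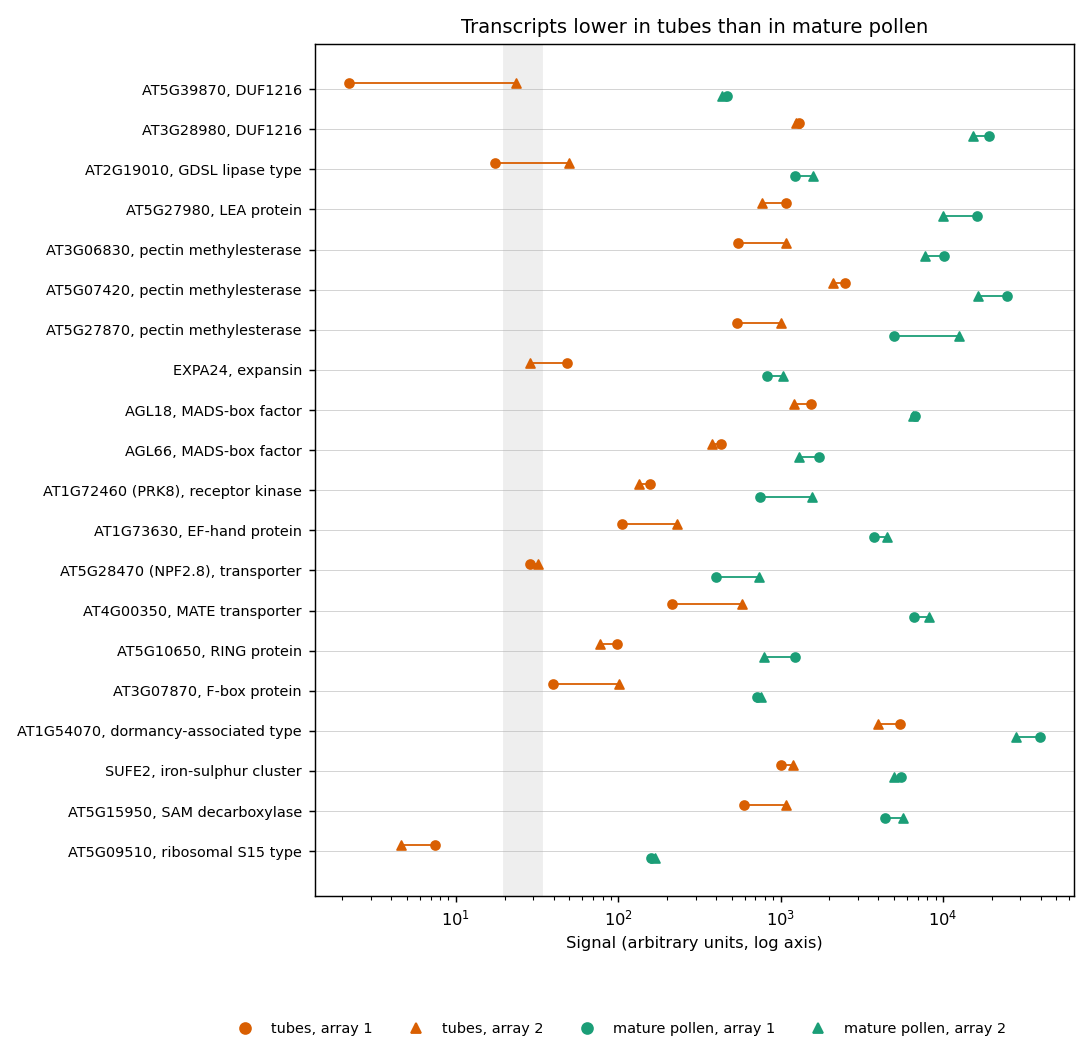
Signal of 20 genes that fell, on a log axis in arbitrary units, with the 2 tube arrays (orange) drawn above the 2 mature arrays (green), circles for array 1, triangles for array 2 and a grey band from the lowest to the highest 60th percentile of the 6 arrays. Every orange point lies to the left of the green points of its gene, and most orange points still lie to the right of the grey band.

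Other steep falls had more varied roles. AT1G63060, to which no role is given here, had nearly identical replicates, 119.2 and 120.4 in tubes, against 3577.7 and 3634.9 in mature pollen (-4.91 ± 0.31, adjusted p = 1.35e-05). AT1G54070, of the dormancy and auxin associated family, was among the 10 brightest named genes of mature pollen, with 5423.4 and 3952.9 in tubes, against 39525.6 and 28318.2 in mature pollen (-2.85 ± 0.37, adjusted p = 0.0008). AT3G10460, related to the S1 self-incompatibility proteins, read 189.4 and 161.6 in tubes, against 5790.2 and 3041.6 in mature pollen (-4.58 ± 0.51, adjusted p = 0.000336). The glycosyltransferase AT2G28080, which the UDP-glycosyltransferase list above does not hold, read 19 and 56.1 in tubes, against 531.3 and 475.2 in mature pollen (-3.94 ± 0.52, adjusted p = 0.000842). AT4G15660, a glutaredoxin, was dim, with 1.6 and 1 in tubes, against 99.3 and 43.4 in mature pollen, at least 2.64-fold lower (adjusted p = 0.0283), and was lost without mature array 1, mature array 2, hydrated array 1 or hydrated array 2 (adjusted p between 0.0946 and 0.43).

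Falls to background had low bounds, and the mature readings of the 4 genes given here were themselves dim. AT2G37240 was at least 3.93-fold lower in tubes (4.1 and 2.5 in tubes, against 95 and 100.8 in mature pollen) and AT5G66290 at least 3.95-fold (16 and 8 in tubes, against 100.1 and 96.7 in mature pollen). AT1G51915, related to small defence peptides called cryptdins, was at least 4.86-fold lower, with 3.6 and 5.7 in tubes, against 138.1 and 106.2 in mature pollen. AT5G43530, a helicase of the SNF2 type, was at least 4.77-fold lower, with 2.8 and 19.2 in tubes, against 112 and 126.1 in mature pollen. In these genes no tube reading lay above background. The call of AT1G51915 was lost without mature array 1 or mature array 2 (adjusted p between 0.0544 and 0.074) and that of AT5G43530 without mature array 2 (adjusted p = 0.0544).

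Metabolic falls chosen after their values were seen included SUFE2, which activates iron-sulphur cluster assembly, at 1009.4 and 1195.6 in tubes, against 5529.7 and 4959.2 in mature pollen (-2.25 ± 0.29, adjusted p = 0.000736). AT5G15950, an S-adenosylmethionine decarboxylase of polyamine synthesis, read 598.6 and 1075.4 in tubes, against 4400.5 and 5650.3 in mature pollen (-2.64 ± 0.35, adjusted p = 0.000913). GPDHp, a plastid glycerol-3-phosphate dehydrogenase of lipid synthesis, read 227.3 and 267.1 in tubes, against 968.9 and 1085 in mature pollen (-2.06 ± 0.31, adjusted p = 0.00202). PPDK, pyruvate orthophosphate dikinase, was brighter, at 5522.3 and 5281.8 in tubes, against 12962.4 and 13504.9 in mature pollen (-1.29 ± 0.29, adjusted p = 0.0192), and its call was lost without tube array 1, tube array 2, mature array 1 or mature array 2 (adjusted p between 0.0585 and 0.107). APG8H, an ATG8-type autophagy protein, was the one fall among 13 tested autophagy genes (1 rise and 3 falls with the block), at 520.2 and 275.3 in tubes, against 1954.4 and 942.2 in mature pollen (-1.84 ± 0.47, adjusted p = 0.037). It was lost without tube array 1, tube array 2 or mature array 1 (adjusted p between 0.0811 and 0.283).

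Of 15 tested tip growth receptors, ROP regulators and peptides 0 rose and 1 fell, beside 3.7% of all named genes that rose and 3.58% that fell, with a median of -0.18. With the block 1 rose and 2 fell, beside 8.4% of all named genes that rose and 9.36% that fell. The receptor kinases ANX1 and ANX2, which keep the tube wall intact, read 5685.7 and 4935.5 in tubes, against 2716.3 and 2946.9 in mature pollen, and 7308.1 and 8213.2 in tubes, against 8344 and 7428.2 in mature pollen. ANX1 was higher on both tube arrays without passing (0.90 ± 0.28, adjusted p = 0.0888, or 0.00108 with the block). The peptide RALFL26 read 26911.4 and 18556.4 in tubes, against 30242 and 21241.9 in mature pollen (-0.18, adjusted p = 0.857), and SCN1, a regulator of ROP GTPases, 10245.6 and 8884.5 in tubes, against 8544.8 and 9441.4 in mature pollen (0.09, adjusted p = 0.918). In RALFL26 and SCN1 the groups overlapped. The 95% interval of the difference of RALFL26 ran from -0.98 to 0.61, which does not show that its level stayed the same.

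The actin cytoskeleton had 1 rise and 0 falls among 9 tested (2 and 4 with the block), with a median of -0.49. AT5G55400, a fimbrin that bundles actin filaments, read 1609.4 and 1260.3 in tubes, against 293.2 and 226.8 in mature pollen (2.47 ± 0.33, adjusted p = 0.000937). The pollen actin ACT11 read 3021.3 and 2656.5 in tubes, against 3275.9 and 3217.6 in mature pollen (-0.20, adjusted p = 0.786). PLIM2a, a pollen LIM-domain bundler, was lower on both tube arrays, 14833.6 and 13476.1 in tubes, against 31719.1 and 26376.5 in mature pollen, without passing (-1.03 ± 0.31, adjusted p = 0.0749, or 0.000691 with the block). WLIM2a, the LIM-domain bundler known from vegetative tissues and chosen after its values were seen, read 1424.1 and 1108.8 in tubes, against 216.7 and 286.2 in mature pollen (2.34 ± 0.34, adjusted p = 0.00158). TUB7, a beta-tubulin chosen in the same way, read 386.6 and 421.7 in tubes, against 60.8 and 53.7 in mature pollen (2.82 ± 0.39, adjusted p = 0.00117).

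Other transcripts among the brightest in both groups did not pass either. AT3G26110, an anther-type arabinogalactan protein, read 31613.4 and 20632.9 in tubes, against 37386.2 and 30859.4 in mature pollen (-0.41). AT1G29140, related to the olive pollen allergen Ole e 1, read 26704 and 21931.1 in tubes, against 28426 and 28079 in mature pollen (-0.22). AT5G26700, a germin-like protein, read 28790.4 and 20238.9 in tubes, against 29205 and 28734.6 in mature pollen (-0.26), and the peroxidase AT5G47000 26458.2 and 20925.6 in tubes, against 25999.9 and 25512.1 in mature pollen (-0.13). These 4 had adjusted p-values of 0.607, 0.783, 0.753 and 0.885. All of them were brighter on tube array 1 than on tube array 2.

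Cytosolic ribosomal proteins, the largest list, had 1 rise and 1 fall among 77 tested (4 and 3 with the block), and 32 of the 77 had a positive difference. Their median was -0.22. AT5G09510, an S15-type protein, was at background in tubes, with 7.4 and 4.6 in tubes, against 158.1 and 168.1 in mature pollen, at least 6.54-fold lower (adjusted p = 0.000414). AT1G18540, an L6-type protein, rose with 356.6 and 340.4 in tubes, against 105.9 and 103.9 in mature pollen (1.73 ± 0.39, adjusted p = 0.0203), a call lost without tube array 1, tube array 2, mature array 1 or mature array 2 (adjusted p between 0.0621 and 0.148). Ribosomal genes have near-identical copies, and probe sets may not separate them. Limma called none of 2 translation factors, 4 proteasome subunits and 2 glycolytic enzymes, and 0 of these 8 had an unadjusted p under 0.05. The sperm cell histone MGH3, the only tested gene of that cell type, read 1362.3 and 886.1 in tubes, against 2442.5 and 1430.7 in mature pollen (-0.77 ± 0.40, adjusted p = 0.346, or 0.0039 with the block).

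**Figure D5:**
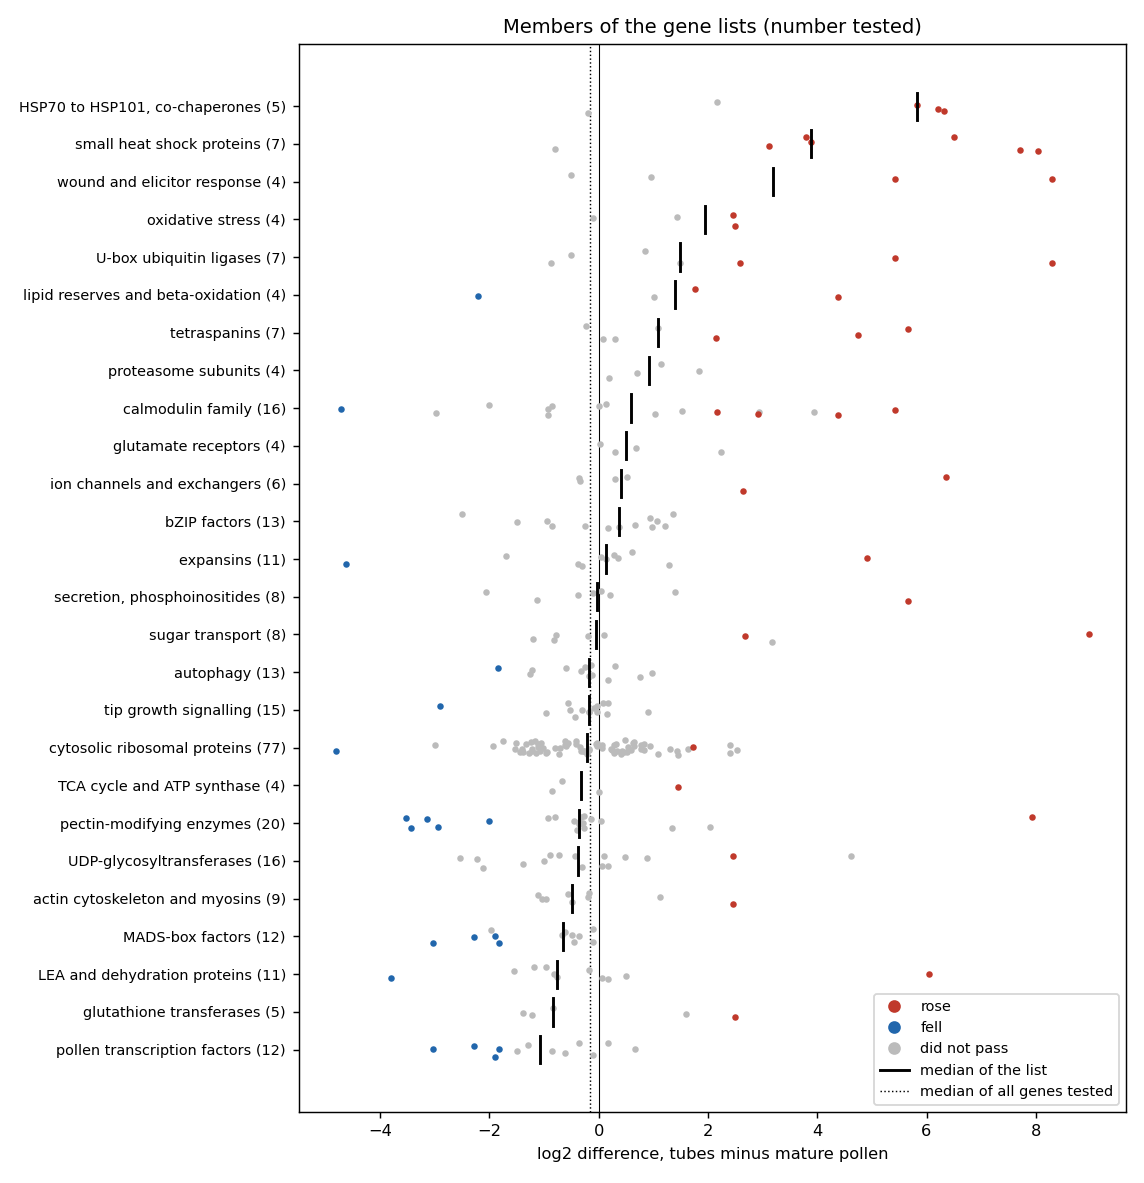
Log2 difference of tubes minus mature pollen (x axis) for the tested members of 26 gene lists (rows, with the number tested), rises in red, falls in blue and other members in grey, with a thick bar at each list's median and a dotted line at the median of all named genes tested, -0.16. Red points fill the chaperone lists at the top, blue points appear in the pectin enzymes and the MADS-box and pollen transcription factors, and most other lists are grey around the dotted line.

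Smaller families added single calls. GSTU23, a glutathione transferase, rose with 192.5 and 91.5 in tubes, against 16.8 and 32.7 in mature pollen (2.50 ± 0.62, adjusted p = 0.0339), the one call among 5 tested transferases (with the block another one fell), and was lost without tube array 1, tube array 2 or mature array 1 (adjusted p between 0.0592 and 0.249). With UGT73B5 it made up the 2 rises among 4 tested genes of oxidative and mitochondrial stress, where NDB2, an alternative mitochondrial NADH dehydrogenase, had 210.7 and 270.3 in tubes, against 63.8 and 123.1 in mature pollen (adjusted p = 0.0941, or 0.00285 with the block, where 3 rose). Limma called 0 of 4 glutamate receptors, 3 xyloglucan endotransglucosylases, 2 WRKY factors, 1 MYB factor and 1 mitogen-activated protein kinase, and 0 of these had an unadjusted p under 0.05. With the block the kinase ATMPK8 and the endotransglucosylase XTH29 fell, both named after their values were seen. Among lists with a 0 in one direction, an unadjusted p under 0.05 in that direction was met by 3 actin genes, 2 glutathione transferases, 1 U-box ligase and, upward, 1 tip growth gene.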

How the data were processed

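RNA of 2 tube, 2 hydrated and 2 mature pollen samples had been hybridised to ATH1 arrays, from 8 µg of total RNA and 20 µg of cRNA per array, per the labels' protocols. The authors deposited a linear signal intensity for each probe set on each array. The submitters' processing notes name GCOS 1.0 and MAS5. The mean without the lowest and highest 2% was 100.02 or 100.03 on every array, so each array was scaled to a common target. Further steps and detection calls are not given in the sources used here.

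Of 22810 probe sets 64 controls were left out. The platform annotation, updated through a RefSeq table of TAIR10.1, gave 1 gene to 13513 probe sets (13355 genes, 13415 probe sets in that table) and several to 503, and left 8730 unnamed. Of the 11412 tested, 6511 had 1 gene. Most members of most lists were unnamed, and 9 of 43 lists had no tested gene. Families taken by symbol or synonym miss members that carry neither. A planned cytochrome P450 list caught cyclophilins and was left out. The reference holds no descriptions, so roles are background knowledge.

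Log2 was taken of the values, with 0.1 as the lowest allowed. Tests covered probe sets that exceeded the 60th percentile of an array on 2 or more of the 6 arrays. Of the 526 rises 94 met that filter only through tube arrays, so counts and medians of tested members describe them and support nothing. Limma 3.58.1 in R 4.3.3 fitted means for 3 stages (3 residual degrees of freedom, intensity trend), two-sided, with Benjamini-Hochberg adjustment. Same-numbered arrays deviated together from their stage means (r = 0.64 for tubes and mature pollen, 0.748 for tubes and hydrated pollen, 0.665 for hydrated and mature pollen, over 2661 probe sets), a link seen in the data and not stated in the labels, so a fit with the number as a block (2 residual degrees of freedom) is given where it changed a call. Simulated data were used to test the code. The number of arrays limits the precision.

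Members and lists were chosen with earlier results of these data known. Genes were named by a rule: with 1 gene, passing and not overlapping, the 25 largest rises and falls, the 10 highest bounds each way, passing list members and each list's brightest member, and the 10 brightest genes of each stage, not all of which are printed. Called genes outside it are marked in the text. Some list members that did not pass and were not the brightest, such as ANX2, EXPB5 and AGL65, are printed beside them without a mark. Alternatives covered the replicate block, the samples fitted, the trend, the filter, a floor, the pseudocount, 2 scalings and leaving out each array. No sequence table was at hand, so no promoter was searched and no sequence is shown.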

Additional observations from a re-analysis of the deposited data

How the results depend on the processing

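The direction of all 141 named genes that passed was the same under each of 17 alternatives in which they were tested, but the number of calls was not stable. With the replicate number as a replicate block, 2159 probe sets passed, 1127 up and 1032 down, and all 141 named calls were kept. With the tube and mature arrays alone and the block, 2033 passed, 1109 up and 924 down. The block changed the call of no other gene named in the report than those given there with their blocked value. Without the intensity trend 228 passed, 180 up and 48 down, with 1885 at an unadjusted p under 0.05, and 58 named calls were kept. Scaling to a common 75th percentile left 198 falls and kept 121 named calls. Its median over all tested probe sets was -0.06, against -0.12 as reported and -0.07 after quantile normalization. Leaving out each array in turn gave 349 to 757 calls, with 217 to 491 rises and 132 to 280 falls. Of the named calls 78 were kept whichever array was left out, 54 were lost at least once, and 10 were not tested without a tube array because they fell below the filter. AT5G52760 counts both among the lost calls and among those not tested. With 1 array left in a stage, that array is assumed to vary like the others. The other 7 alternatives gave 794 to 1109 calls. Signals near the 60th percentile cannot be ordered, and with 2 arrays per stage a difference that did not pass may still exist.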
